A study of Mus musculus with 17 samples.

Results

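In the postnatal mouse heart, 8 noncoding features were higher at day 3 after birth than at day 0 and at day 7, both in the left ventricle (LV) and in the right (RV). They are 8 of the 23940 rows of the deposited tables of long noncoding RNA. A row was taken when, on group means of log2(FPKM + 0.1), day 3 (P3) lay more than 0.8 above day 0 (P0) and more than 0.8 above day 7 (P7) in each ventricle. FPKM is fragments per kilobase of length, scaled to the depth of a library. Its mean over all 17 libraries also had to reach 0.3 FPKM, and it could not lie on the mitochondrial chromosome, which left 4149 eligible rows. The members were thus chosen by their measured values at the 3 ages, so their height at P3 is described here and not tested.

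The libraries came from total RNA of male C57Bl/6 mice, from either ventricle. At P0 the ductus arteriosus had not yet closed, P3 is labelled a transition, and P7 is the age at which most heart muscle cells reach terminal differentiation. LV P0, LV P3, LV P7, RV P0 and RV P3 held 3 libraries each and RV P7 held 2. The labels call them biological replicates and do not say whether an LV and an RV library share an animal, so p-values measure the spread between these samples. Nor do they name any treatment or altered allele in a group.

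Long noncoding RNAs are transcripts without a long open reading frame. Some act in the nucleus on the gene they overlap or on its neighbours, some host small RNAs, and for many no function is known. In the first week after birth the mouse heart turns from glucose towards fatty acids as fuel. Its muscle cells make a last round of DNA synthesis before most of them stop dividing.

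The tables identify rows by an ID and a position, with no gene name and no strand, and a look-up of the 8 IDs in RefSeq's table for GRCm38.p6 found 0. The positions are not those of the build mm10 that the submitters' processing notes name. On 9 nuclear chromosomes some lie beyond every gene that GENCODE M21 places on GRCm38, on chromosome 7 by 7.08 Mb. They are printed as the files give them and are taken to be positions on mm9, the older assembly. The genes, exons and introns at these positions were not analysed here, and neither were marker genes of heart muscle or of other cell types.

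Of the 8 rows, 4 carry NONCODE IDs (NONMMUT), which come from a catalogue of noncoding transcripts, and 4 carry IDs that transcript assemblers write (TCONS). They lie on 7 chromosomes, and none lies within 50 kb of another. Their positions span 388 to 28104 bases, with a median of 4972 against 2230.5 bases over the eligible rows. Their mean values over the 17 libraries were low, from 0.303 to 1.15 FPKM. They lay on both sides of the median of 0.705 FPKM over the eligible rows.

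Depth limits these rows. Many low values, multiplied by the length of the printed position, fell on steps that were constant within a library. In each library 59.7% to 62.7% of them lay within 0.01 of a multiple of 0.5 fragment. These steps correspond to 13.8 to 20.5 M fragments per library. For each of the 8 rows a length was found at which the values of all 17 libraries came out as whole multiples of 0.5 fragment, within 0.01 of a fragment. Whole multiples of that length fit as well, so the fragment numbers given here are the lowest that the values allow. For 7 rows the length was no longer than the position, as in a spliced or single-exon transcript. For NONMMUT071529 the smallest such length was 821 bases, although its position spans 388. The unit and the steps are inferred, and the sequence counted for that row was not tested.

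One difference between libraries does not follow their groups. A mitochondrial row, NONMMUT071594, at positions 9203 to 9888 of the mitochondrial chromosome, measured 131.5 to 247 FPKM in 6 libraries and 7.93 to 25.8 FPKM in the other 11. The 6 high libraries were replicates 1 and 3 of P3 and replicate 3 of P0, in both ventricles. Replicate 2 of P3 and all P7 libraries were low. For the members, P3 replicate 2 lay above every P0 and P7 library of its ventricle for 7 of 8 members in LV and for 8 of 8 in RV. Among the eligible rows this held for 7.25% in LV and 17.5% in RV, and the rule used these libraries, so nothing is read from the difference. Among the 3 P3 libraries, replicate 2 was the lowest for 3 members in LV and 2 in RV, and the highest for 2 in LV and 5 in RV. Over all eligible rows, P3 replicate 2 was the lowest of the 3 in 58.8% in LV and 48.6% in RV.

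**Figure D1:**
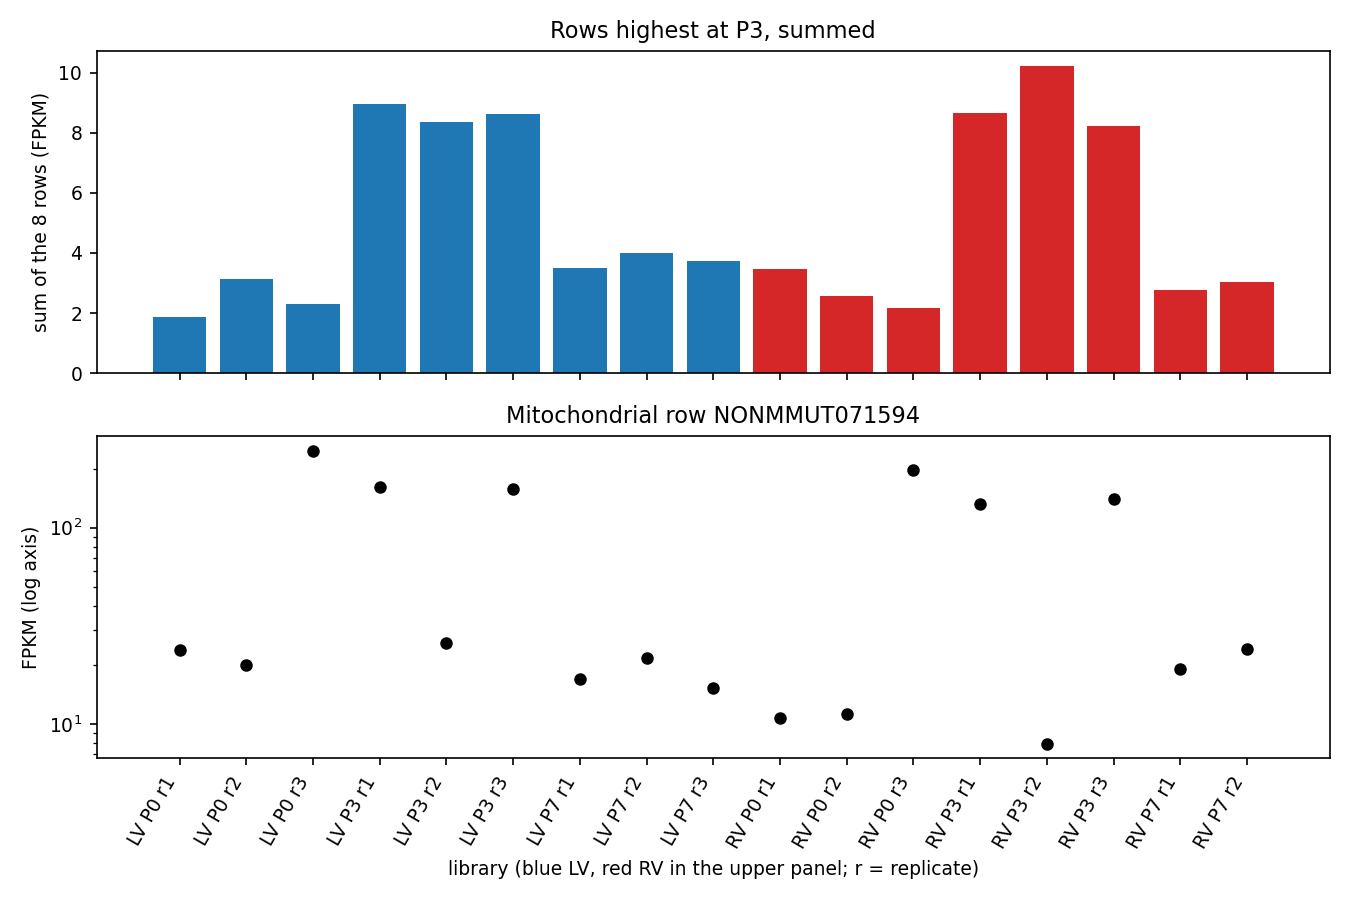
Upper panel, the sum of the 8 rows in FPKM in each of the 17 libraries (blue LV, red RV); lower panel, the mitochondrial row NONMMUT071594 in FPKM on a log axis. The summed level was 8.21 to 10.2 FPKM in the P3 libraries and 1.857 to 3.996 FPKM in the P0 and P7 libraries. The rows were chosen for their height at P3 in these libraries, so nothing is read from this gap. The mitochondrial row split the P3 libraries.

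In 5 of the 8 members every P3 library lay above every P0 and every P7 library, within LV and within RV. These are NONMMUT012780, NONMMUT071529, TCONS_00049067, NONMMUT042600 and NONMMUT062937. Such a separation in both ventricles was found in 0.868% of the eligible rows (36 of 4149), and since the rule used these contrasts nothing is read from the difference. The other 3 members overlapped with P0 or P7 in at least 1 ventricle. LV alone separated the ages for 5 members, where 2.07% of the eligible rows were so separated, and RV alone for 6, where 5.18% were. In pieces of ventricle, fewer cells of a type and less RNA per cell cannot be told apart.

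NONMMUT012780 was the most abundant member, and the smallest of its 4 log2 differences was the highest among the members. It lies on chromosome 11, positions 115877641 to 115885828. In LV it measured 0.435, 0.665 and 0.763 FPKM at P0 in replicates 1 to 3, then 2.20, 1.64 and 3.08 at P3, and 0.715, 0.720 and 1.02 at P7. The lowest P3 library thus lay well above the highest of the other ages. In RV the values were 0.560, 0.708 and 0.575 FPKM at P0, 1.54, 1.54 and 2.37 at P3, and 0.469 and 0.624 at P7.

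Group means of NONMMUT012780 were 0.621 ± 0.169, 2.31 ± 0.722 and 0.819 ± 0.176 FPKM in LV (SD, n = 3 each). The P3 mean of LV was 3.71 times that of P0 and 2.82 times that of P7, and in RV these ratios were 2.95 and 3.32. That smallest difference was 1.36, and it is also the best counted member, with at least 70.0 to 182 fragments per P3 library and 28.0 to 61.5 at the other ages. A pair of further NONCODE rows has the same position: NONMMUT012778 averaged 0.0114 FPKM and NONMMUT012779 0.0225 FPKM over all libraries. Nearly all signal listed at this position was thus in 1 of its 3 rows.

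NONMMUT071529, on chromosome 9, positions 123370918 to 123371305, had a similar height on far fewer fragments. In LV it measured 0.208, 0.559 and 0.165 FPKM at P0, 1.201, 1.38 and 0.578 at P3, and 0.411, 0.403 and 0.268 at P7. The groups only just separated there, because P3 replicate 3 lay close to P0 replicate 2. In RV it measured 0.273, 0.585 and 0.235 FPKM at P0, 0.938, 1.02 and 0.841 at P3, and 0.337 and 0.294 at P7. Replicate 2 of P0 was the highest of its group in both ventricles. The smallest of the 4 log2 differences was 1.22, and the fragments behind a library numbered 8.5 to 21.5 at P3 and 2.5 to 8 at the other ages.

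TCONS_00049067 lies on chromosome 6, positions 73172937 to 73175203. Its LV values were 0.509, 0.229 and 0.284 FPKM at P0, 1.16, 1.01 and 1.27 at P3, and 0.343, 0.996 and 0.431 at P7. P7 replicate 2 came close to the lowest P3 library, 9.5 against 11 fragments, so the separation in LV is narrow. The RV values were 0.586, 0.261 and 0.240 FPKM at P0, 1.30, 1.39 and 1.203 at P3, and 0.578 and 0.420 at P7, with a wide gap between P3 and the rest. Log2 differences ran from 0.96 for LV P3 against P7 to 1.67 for RV P3 against P0. A NONCODE row lies inside its position: NONMMUT057464, positions 73173044 to 73175058. That row averaged 0.0416, 0.245 and 0.182 FPKM at P0, P3 and P7 in LV and 0.0664, 0.232 and 0.137 in RV, so it too was lowest at P0 and highest at P3, below the 0.3 FPKM minimum. Rows that overlap can share fragments.

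NONMMUT042600 lies on chromosome 3, positions 35898755 to 35924028, and was the member whose P3 level differed most between the ventricles relative to its spread. In LV it measured 0.450, 0.303 and 0.534 FPKM at P0, 1.02, 0.959 and 0.683 at P3, and 0.302, 0.287 and 0.197 at P7. In RV the P0 values were 0.276, 0.519 and 0.337 FPKM, the P3 values 1.32, 1.89 and 1.43, and the P7 values 0.289 and 0.455. All P3 libraries of RV therefore lay above all P3 libraries of LV, while the ventricles overlapped at P0 and at P7. The P3 mean was 2.07 times the P0 mean in LV and 4.11 times in RV. At least 41 to 87.5 fragments lay behind each P3 value. Another row at the same position, NONMMUT042598, averaged 0.0216 FPKM.

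In LV, NONMMUT042600 was lower at P7 than at P0 by a log2 difference of -0.54, whereas in RV both ages were level, at -0.01. A separate row 40794 bases away, NONMMUT042592, did not share the peak. Its means were 1.02, 0.623 and 0.289 FPKM at P0, P3 and P7 in LV and 0.816, 0.757 and 0.327 in RV, lower at each later age.

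NONMMUT062937, on chromosome 7, positions 107595247 to 107623350, was almost unmeasured at birth. At P0 it measured 0.0213, 0.0287 and 0 FPKM in LV and 0.0736, 0 and 0.0362 in RV, which corresponds to 0 to 3 fragments per library. The P3 values were 0.735, 0.646 and 0.501 FPKM in LV and 0.887, 0.651 and 0.762 in RV. At P7 it measured 0.320, 0.277 and 0.325 FPKM in LV and 0.424 and 0.258 in RV. Each P7 library thus lay between the P0 and the P3 libraries of its ventricle, with no overlap on either side.

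Its log2 differences of P3 against P0 were the largest among the members, 2.64 in LV and 2.69 in RV, and depend on the pseudocount because P0 is near 0. Against P7 they were 0.83 and 0.99. At least 20.5 to 39.5 fragments lay behind each P3 value and 10.5 to 17.5 behind each P7 value. NONMMUT062937 was the only member whose P7 libraries all lay above its P0 libraries, and this held in both ventricles. A short row within its position, NONMMUT062938 at 107606969 to 107607915, averaged 0.0403, 0.314 and 0.150 FPKM at P0, P3 and P7 in LV and 0.0999, 0.186 and 0.0567 in RV.

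Of the 3 members with overlapping ages, TCONS_00050872 was the most abundant. It lies on chromosome 6, positions 86433370 to 86438242. Its LV values were 0.125, 0.422 and 0.314 FPKM at P0, 1.85, 1.02 and 1.15 at P3, and 0.723, 0.232 and 1.27 at P7, so that P7 replicate 3 exceeded 2 of the P3 libraries. In RV it measured 1.01, 0.154 and 0.248 FPKM at P0, 1.48, 1.21 and 0.926 at P3, and 0.569 and 0.585 at P7. Here P0 replicate 1 exceeded the lowest P3 library.

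A pair of rows near TCONS_00050872 had much higher levels and stayed closer to P3 at P7. NONMMUT057773, 25647 bases away at positions 86463889 to 86466267, measured 9.38 to 14.6 FPKM at P0, 22.3 to 26.8 at P3 and 19.2 to 26.4 at P7 in LV. In RV its libraries ranged from 7.65 to 12.2 FPKM at P0, 24.6 to 32.7 at P3 and 19.1 to 26.5 at P7. TCONS_00050875 covers almost the same positions and averaged 1.82, 3.65 and 3.27 FPKM at the 3 ages in LV and 1.59, 4.26 and 3.36 in RV. Both were higher in every P3 library than in every P0 library. P7 overlapped P3 except for TCONS_00050875 in RV, where P7 reached 3.70 FPKM and P3 began at 4.15.

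TCONS_00033385, on chromosome 2, positions 152225569 to 152226016, is short and rests on very few fragments. In LV it measured 0.109, 0.586 and 0.182 FPKM at P0, 0.535, 0.647 and 0.748 at P3, and 0.439, 0.470 and 0.123 at P7. Its RV values were 0.688, 0.268 and 0.246 FPKM at P0, 0.802, 1.78 and 0.402 at P3, and 0.0617 and 0.299 at P7. The P3 libraries held 3 to 11 fragments and those of the other ages 0.5 to 5.5. A single P3 library, RV replicate 2, held the highest value, and RV P3 replicate 3 lay below RV P0 replicate 1. In LV, P3 replicate 1 lay below P0 replicate 2.

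TCONS_00016168, on chromosome 13, positions 54006117 to 54011187, passed both the level and the difference limits by the least. In LV it measured 0, 0.333 and 0.0550 FPKM at P0, 0.243, 1.04 and 0.623 at P3, and 0.257, 0.611 and 0.111 at P7. LV P3 replicate 1 lay below P0 replicate 2 and below 2 P7 libraries. In RV the values were 0, 0.0609 and 0.252 FPKM at P0, 0.390, 0.736 and 0.274 at P3, and 0.0561 and 0.109 at P7, with no overlap in FPKM. That separation is narrow, since RV P3 replicate 3 and RV P0 replicate 3 held 4.5 fragments each. In both ventricles the P3 value of replicate 2 was the highest. Its neighbour in the tables, TCONS_00016170, has the same position. That row averaged 0.103, 0.557 and 0.338 FPKM in LV and 0.166, 0.260 and 0.382 in RV, so that in RV it was highest at P7. A further overlapping row, NONMMUT017592, averaged 0.326, 0.340 and 0.491 FPKM at P0, P3 and P7 in LV. In RV it averaged 0.0852, 0.468 and 0.294, so it was highest at P3 in RV only.

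**Figure D2:**
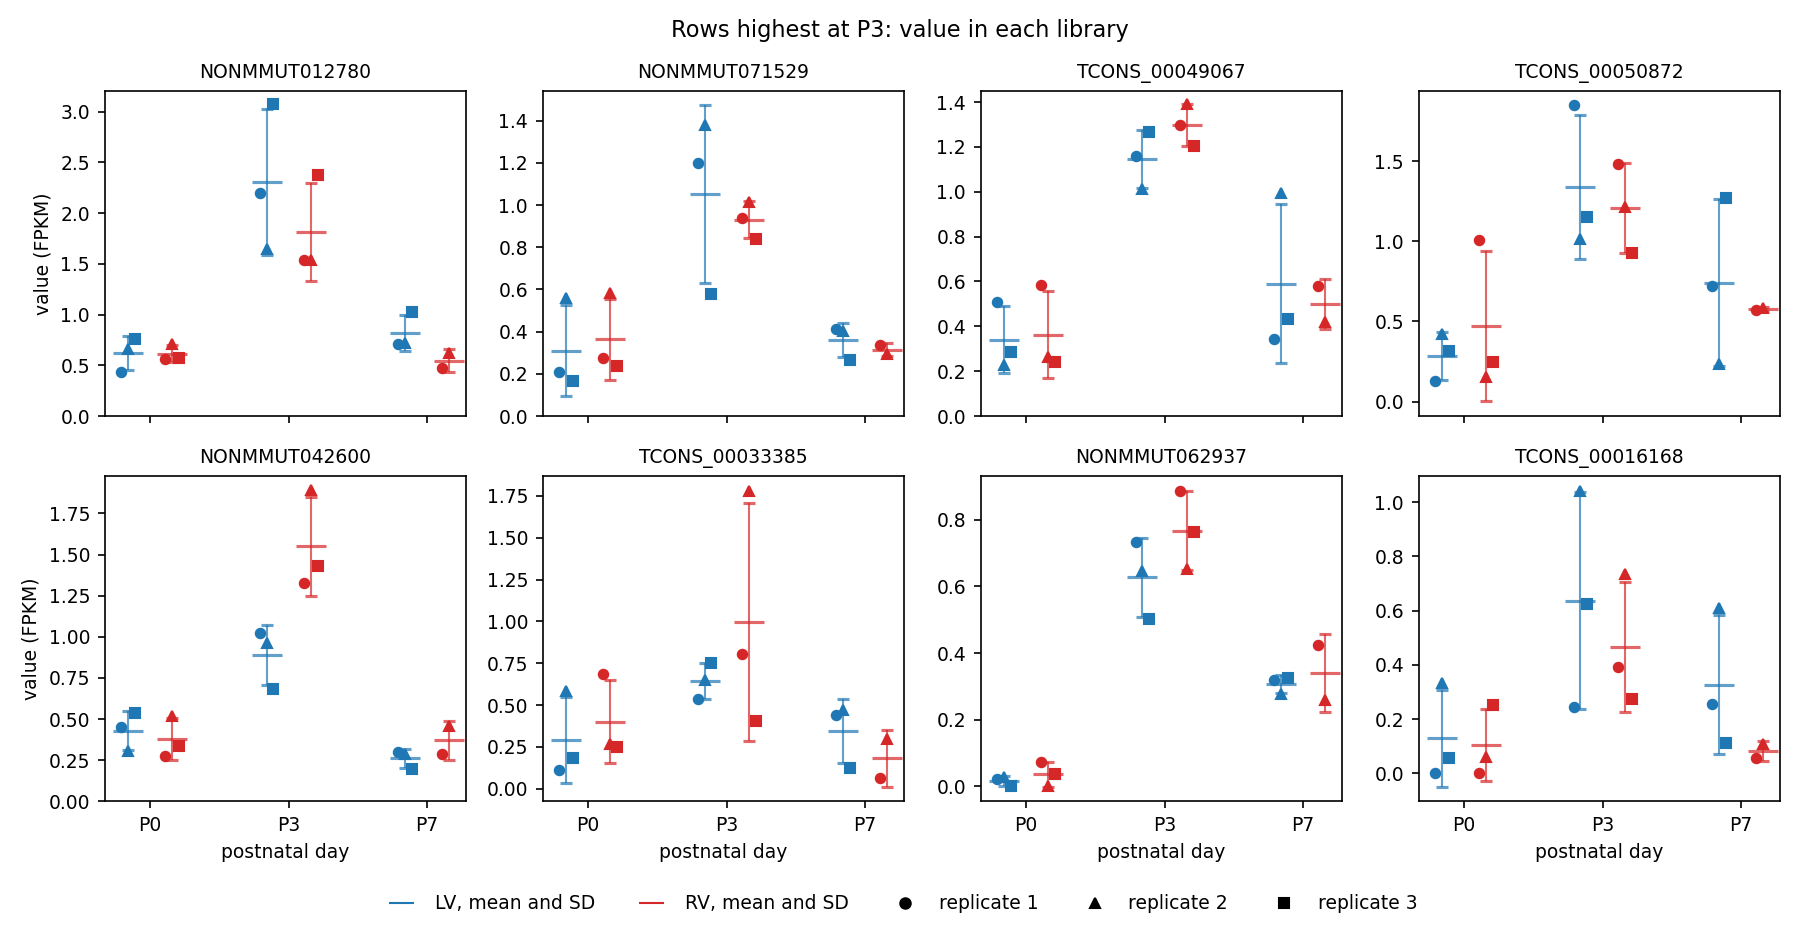
Value in FPKM of each of the 8 rows in every library at P0, P3 and P7, LV in blue and RV in red; symbols mark the replicate number, horizontal bars the group mean and whiskers the SD (n = 3, RV P7 n = 2). P3 does not overlap the other ages in 5 panels, but the gap in LV is narrow for NONMMUT071529 and TCONS_00049067. TCONS_00050872, TCONS_00033385 and TCONS_00016168 overlap in at least 1 ventricle.

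**Figure D3:**
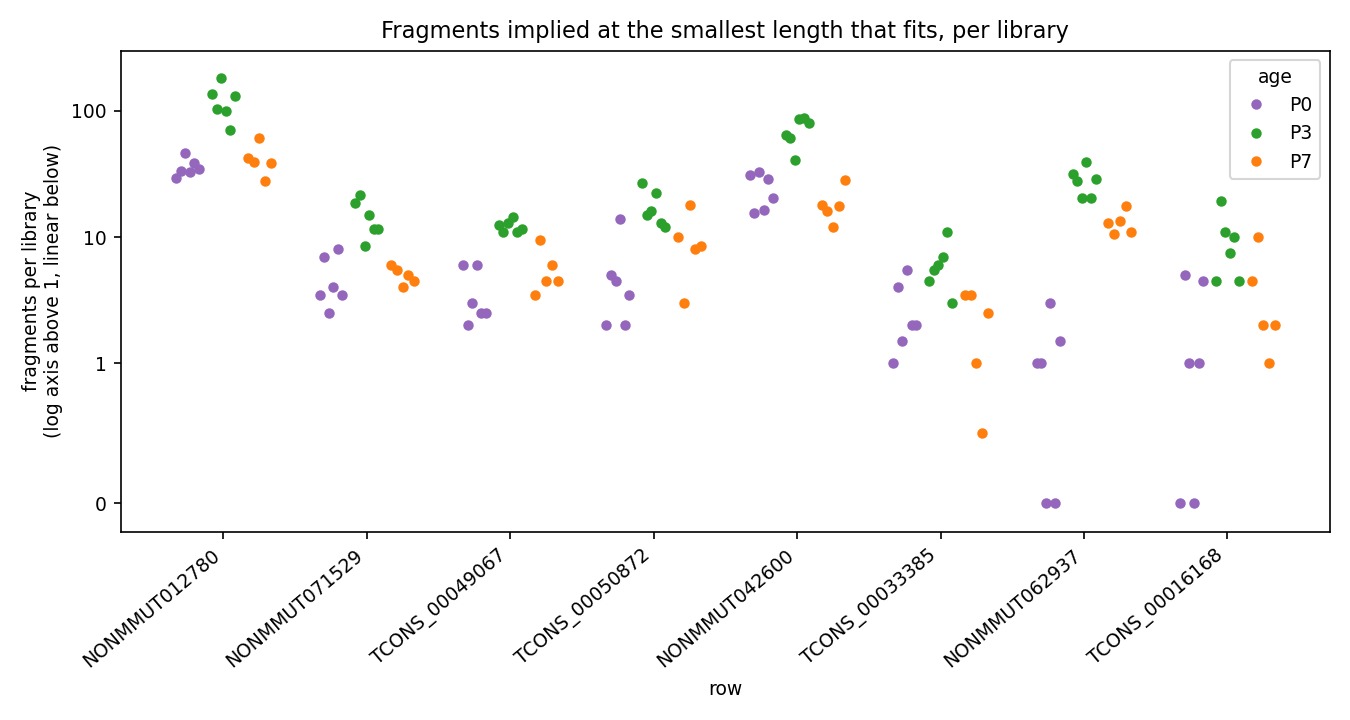
Fragments per library at P0, P3 and P7 for each row, at the smallest length that gives whole multiples of 0.5 fragment in all 17 libraries (log axis above 1, linear below). NONMMUT012780 and NONMMUT042600 hold 41 to 182 fragments at P3, and the 3 rows with overlapping ages hold 3 to 27.

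Seen as a set, the members had median log2 differences of 1.64 for P3 against P0 and 0.96 for P3 against P7 in LV, and of 1.53 and 1.43 in RV. Over the 11079 rows that reached 0.1 FPKM in 2 or more libraries, which include all 8 members, the medians were -0.09 and 0.22 in LV and -0.04 and 0.22 in RV. The median row was thus higher at P3 than at P7. After each library was scaled to the same median, 4 rows met the rule, 3 of them members: NONMMUT012780, NONMMUT071529 and NONMMUT042600. With a pseudocount of 1, 0 rows did.

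P7 was not always a return to the level of P0. The P7 group mean of the log2 values lay above that of P0 for 7 of 8 members in LV and for 4 of 8 in RV. Apart from NONMMUT062937 the P0 and P7 libraries of each ventricle overlapped or P7 was the lower. The rule used the means of these groups, so their order is a description.

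By this rule a peak at P3 was a rare pattern. By the same rule with the ages exchanged, 121 eligible rows were highest at P0 in both ventricles and 47 were highest at P7. Likewise 114 were lowest at P0 and 140 lowest at P7. By the rule itself 8 rows were highest at P3, 0.193% of the eligible rows, beside 5 that were lowest at P3. In LV alone 26 rows met the rule and in RV alone 75.

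Rows chosen in 1 ventricle were then read in the other, whose libraries entered the choice only through the minimum of 0.3 FPKM over all 17 libraries. Of the 26 rows chosen in LV, 8 (30.8%) also met the rule in RV, against 1.81% of all eligible rows. Of the 75 chosen in RV, 8 (10.7%) met it in LV, against 0.627%. At least a difference above 0 from both other ages was seen in RV for 20 of the 26 (76.9%, against 34.4% of eligible rows) and in LV for 47 of the 75 (62.7%, against 26.0%). The 8 rows that met the rule in both are the members by definition, so these shares are a description and not support for them. No test was made of these shares, and same-numbered LV and RV libraries also resemble each other at the mitochondrial row.

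The same was done with replicate 2, which is low at the mitochondrial row at every age. Without it, 4217 rows were eligible and 16 met the rule, 3 of them members. In the libraries that made this choice, all at P3 were high at the mitochondrial row and all at P7 were low. Age and this split of the libraries cannot be told apart there. Within replicate 2 alone, 6 of the 16 (37.5%) were higher at P3 than at P0 and P7 in both ventricles, against 10.2% of those 4217 rows. All 4 differences exceeded 0.8 for 1 of the 16 (6.25%), against 0.451% of those 4217 rows. Conversely, with replicate 2 as the only P3 library, 14 rows met the rule and 6 of the 8 members were among them. NONMMUT062937 and TCONS_00050872 missed it, with smallest differences of 0.79 and 0.63. The members had been chosen with these libraries included, so their number here is a description. The shares of the 16 rows rest on 1 library per group, were not tested and are a description too.

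**Figure D4:**
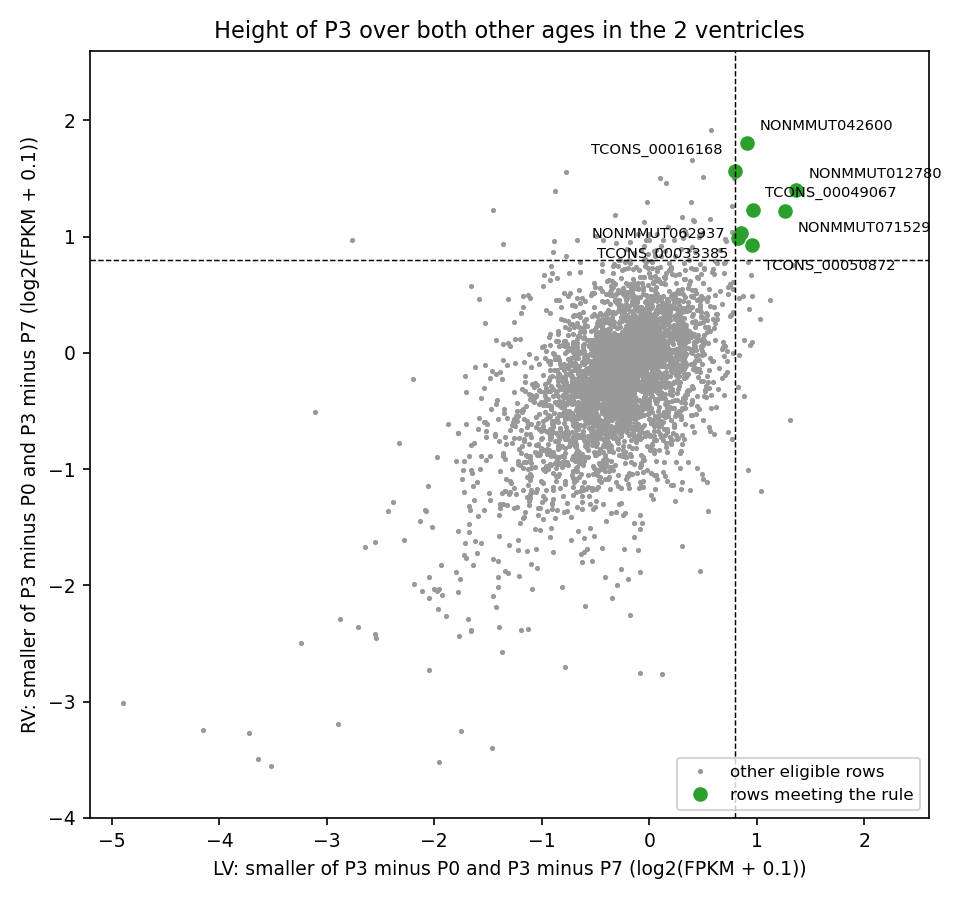
For the 4149 eligible rows, the smaller of P3 minus P0 and P3 minus P7 on log2(FPKM + 0.1) in LV (horizontal) and in RV (vertical); dashed lines mark 0.8, and the 8 rows meeting the rule in both are green. They lie at the edge of a continuous cloud, with TCONS_00016168, NONMMUT062937 and TCONS_00033385 nearest to the line for LV.

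No gap set the members apart from the rows just short of the rule. The 3 members nearest the limit had smallest differences of 0.85 (TCONS_00033385), 0.83 (NONMMUT062937) and 0.80 (TCONS_00016168). Just outside stood NONMMUT012003 at 0.79, NONMMUT015635 at 0.78 and NONMMUT016806 at 0.77. Of these NONMMUT016806, on chromosome 13 at positions 29040913 to 29043540, was far more abundant than any member. In LV its libraries ranged from 5.12 to 6.97 FPKM at P0, 8.26 to 11.4 at P3 and 5.45 to 6.61 at P7. In RV they ranged from 4.52 to 5.88, 10.2 to 11.7 and 4.005 to 4.79 FPKM. Its P3 libraries did not overlap the other ages in either ventricle. It is 1 of 31 eligible rows outside the rule with such a separation, whereas 5 eligible rows had all P3 libraries below all others in both ventricles.

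The rule did not compare the ventricles directly, but it asked for the same peak in both, so rows peaking in LV or RV alone were left out. Nothing is therefore read from the members' count of calls beside the share of all rows. The difference between ventricles was tested with limma across all 11079 rows. Over the 3 ages, 0 of the 8 members were called at a Benjamini-Hochberg adjusted p under 0.05, where 0.00903% of all rows were called, and 0 members had an unadjusted p under 0.05. At P3 again 0 of 8 were called, where 0.00903% of all rows were, and 1 member had an unadjusted p under 0.05. That member was NONMMUT042600, higher in RV by 0.74 ± 0.30 on the log2 scale (SE). Its limma adjusted p was 0.784, and 0.499 to 1 over the alternatives. Its difference was -0.16 ± 0.30 at P0 and 0.37 ± 0.33 at P7.

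The other members gave P3 differences between -0.31 for NONMMUT012780 and 0.36 for TCONS_00033385, with SE of 0.28 and 0.53. At P0 and at P7 0 members were called and 0 had an unadjusted p under 0.05 by limma, where 0% and 0.00903% of all rows were called. The widest difference at P7 was -1.06 ± 0.66 for TCONS_00016168 (RV minus LV, limma adjusted p = 1, and 0.732 to 1 over the alternatives). Over the 3 ages NONMMUT042600 gave 0.32 ± 0.18 (limma adjusted p = 0.789, over the alternatives 0.693 to 0.920) and NONMMUT012780 gave -0.27 ± 0.17 (0.815, over the alternatives 0.678 to 0.959). TCONS_00016168 gave -0.48 ± 0.36, NONMMUT062937 0.18 ± 0.19 and TCONS_00049067 0.04 ± 0.21, with limma adjusted p of 0.852, 0.914 and 0.993. Their adjusted p ran over the alternatives from 0.570 to 0.964, 0.824 to 0.993 and 0.942 to 0.999. These misses do not show that the ventricles are alike. The SE ran from 0.17 to 0.36 over the ages and reached 0.59 at P3 and 0.66 at P7, so large differences could also go uncalled.

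**Figure D5:**
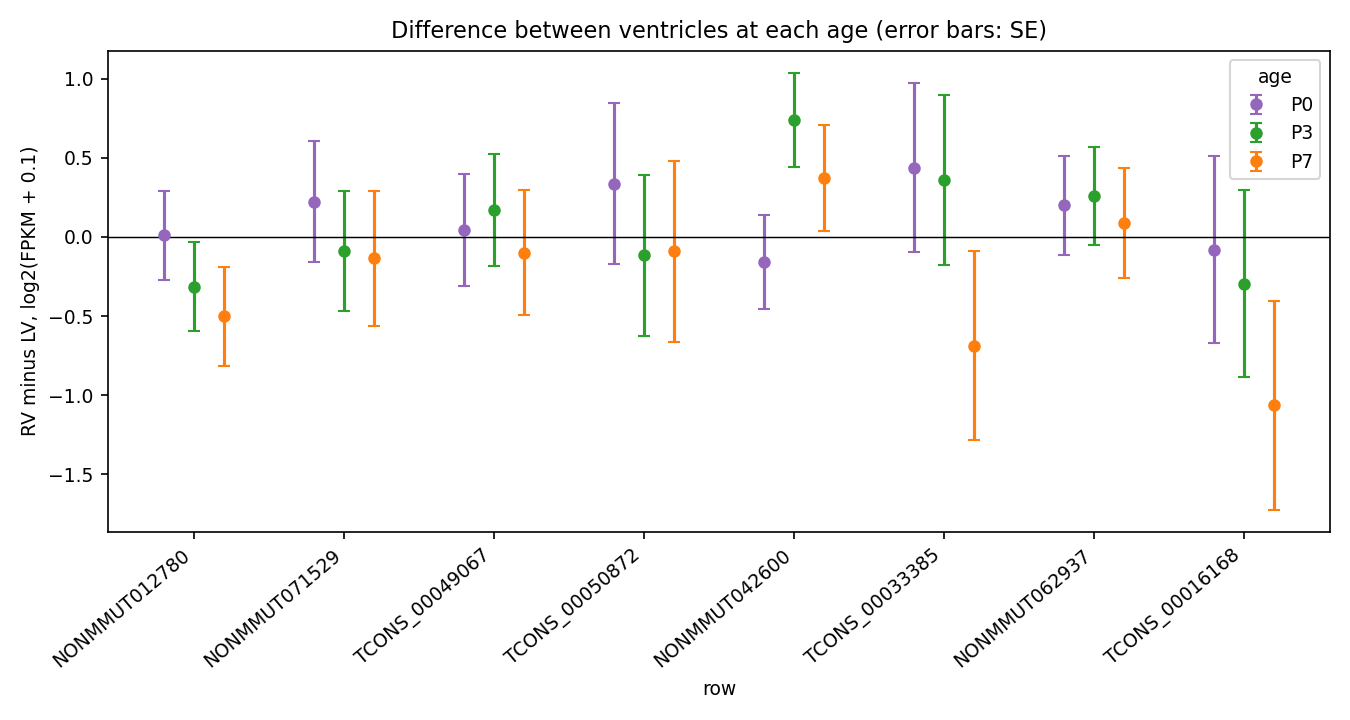
Difference between ventricles, RV minus LV on log2(FPKM + 0.1), at P0, P3 and P7 for each of the 8 rows, from the limma fit with SE as error bars. NONMMUT042600 at P3 lies at 0.74 ± 0.30, and no difference passed the adjusted threshold.

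Within 50 kb of the 8 members the tables list 29 further rows, of which 4 have the same position as a member and 5 overlap one. Of the 29, 6 reached the 0.3 FPKM minimum, and 2 of these 6 were higher at P3 than at both other ages in both ventricles, the pair NONMMUT057773 and TCONS_00050875, where 15.1% of all eligible rows were. Of the 23 rows under the minimum, 5 had this order, among them NONMMUT057464 and NONMMUT062938. None of the 29 met the rule. Beside TCONS_00033385, for example, NONMMUT040528 averaged 2.08, 2.89 and 3.21 FPKM at P0, P3 and P7 in LV and 1.38, 2.31 and 3.37 in RV, without a peak.

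Membership itself depended on single libraries for 6 of the 8 rows. NONMMUT012780 and NONMMUT071529 met the rule whichever of the 17 libraries was left out, with smallest differences from 1.14 to 1.40 and from 1.03 to 1.26. TCONS_00049067 and NONMMUT042600 met it in 16 of the 17 cases, NONMMUT062937 and TCONS_00050872 in 14, TCONS_00033385 in 13 and TCONS_00016168 in 10, in part because its mean then missed 0.3 FPKM. Without LV P7 replicate 2, the smallest difference of TCONS_00050872 fell from 0.93 to 0.39. Without LV P7 replicate 3 it was 0.41 for TCONS_00033385 and 0.38 for TCONS_00016168. For TCONS_00033385 it was 0.53 without RV P3 replicate 2. For TCONS_00016168 it was 0.40 without LV P3 replicate 2, and became 1.27 when LV P3 replicate 1 was left out and to 1.26 when LV P7 replicate 2 was.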

How the data were processed

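Strand-specific paired-end RNA libraries of 17 mouse ventricle samples were analysed from 1 deposited table each. The submitters' processing notes name STAR 2.4.0j and the build mm10. How fragments were counted, on which annotation and with what normalization is not given in the sources used here. Values deposited by the authors carry no unit and were read as FPKM. The reason is that many low values times the length of the printed position fall on steps constant within a library. Of the low values, 59.7% to 62.7% lay within 0.01 of a multiple of 0.5 fragment. The depth so implied is 13.8 to 20.5 M fragments, and intervals were not computed. Samples were grouped by ventricle and age from their titles.

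Means, differences and overlaps were computed in Python 3.11.15. Ventricles were compared on log2(FPKM + 0.1) in limma 3.58.1 (R 4.3.3), fitting 6 group means with a variance trend and robust moderation to rows that reached 0.1 FPKM in 2 or more libraries. The fit was also run on simulated data with independent normal noise. That setting leaves out any likeness of same-numbered libraries, so nothing is read from it for the members. The members, the rule, the tests and the alternatives were chosen with earlier results of these data known. The rule for named rows takes members without overlap, the 5 most abundant, the 3 nearest inside and outside the threshold and the 5 with the smallest ventricle p, here all 8 members. Rows within 50 kb were named after their values were seen. Alternatives covered the pseudocount, thresholds, scaling, filters, library sets, a replicate block and leaving out each library.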

Additional observations from a re-analysis of the deposited data

How the results depend on the processing

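The count of 8 rows depends on the settings of the rule. It was 14 with a pseudocount of 0.01 (all 8 members among them) and 0 with a pseudocount of 1, 39 at a threshold of 0.5, 2 at 1.2, 1 with a mean of at least 1 FPKM and 4 after median scaling. It was 14 with P3 replicate 2 as the only P3 library and, chosen after seeing the data, 19 in the 11 libraries low at the mitochondrial row NONMMUT071594, where 6 of the 8 members remained. Those 11 libraries hold only replicate 2 at P3, 1 library per ventricle. With a term for a split of the libraries by their summed mitochondrial rows, the count was 7, with 5 of the 8 members among them. A term for the split by NONMMUT071594, chosen after seeing the data, gave 10 with all 8 members. Leaving out 1 library gave 6 to 13 rows, the 13 without LV P3 replicate 2. The count of rows that met the rule with no overlap, 5, was 0 with a pseudocount of 1 and 1 with a mean of at least 1 FPKM, because fewer rows met the rule there. It was 17 in those 11 libraries, where fewer libraries have to be separated, and 4 to 8 without 1 library, the 8 without LV P3 replicate 2. The share of rows chosen in LV that met the rule in RV, 30.8%, was 0 with a pseudocount of 1, where 1 row was chosen, 17.1% with a mean of at least 0.1 FPKM, 50% of 4 rows at a threshold of 1.2, and 17.6% to 34.6% without 1 library. The causes of the other changes were not tested.

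No alternative called a member between the ventricles. With age and replicate number as a replicate block, 0 of the 8 were called over the 3 ages or at P3. Over all rows tested by limma the block raised the calls from 1 to 5 over the ages and from 1 to 11 at P3, and the other alternatives gave 0 to 3. Deviations of same-numbered LV and RV libraries correlated at 0.045 to 0.172 and exceeded 0.1 in 3 of 8 pairs, each library resembling its own number most, a hint from the data and not from the design. Restricting the rule to a set split by the summed mitochondrial rows gave no value, because its lower set holds no P7 library. With 0.5 to 11 fragments a library for TCONS_00033385 and 0 to 19.5 for TCONS_00016168, depth limits these members.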
